A study of Mus musculus with 4 samples.

Results

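The 10 genes followed here are those most often used to place a carcinoma cell between an epithelial and a mesenchymal state: the keratins Krt8 and Krt18, the cadherins Cdh1 and Cdh2, vimentin (Vim) and the transcription factors Snai1, Snai2, Twist1, Zeb1 and Zeb2. They were chosen by name, and all 10 were found by symbol among the 18577 genes that the 4 count tables share. In the epithelial to mesenchymal transition, a cell gives up the adherens junctions built on E-cadherin and the keratin filaments of epithelium, and takes on vimentin filaments and matrix contacts. Repressors of the Snail, Zeb and Twist families bind short E-box sequences in the promoters of epithelial genes, Cdh1 among them, and many carcinomas hold mixtures of both programs rather than 1 pure state. Krt8 and Krt18 encode partner keratins that pair into the filaments of simple epithelium, which lines lung, gut and liver.

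Single-cell RNA sequencing was performed on subcutaneous tumors grown from the Lewis lung carcinoma (LLC) line in female C57BL/6N mice aged 6 to 8 weeks. The radiotherapy (RT) group was 3 libraries of 1 tumor each, RT1, RT2 and RT3, irradiated with 3 fractions of 8 Gy (24 Gy in total) on days 7 to 9 after injection of the cells, and taken 72 h after radiation. The control (NT) group was 1 library made from 3 mock-treated tumors pooled at the same time, so the spread between control tumors was not measured and no test of RT against NT was possible. All tumors came from the same cell line, injected under the skin, so the tumor cells have no lung tissue around them.

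The deposited tables held 69667759 UMIs (unique molecular identifiers, each marking 1 captured messenger RNA molecule) on 10141 barcodes in NT, 78585759 on 15346 in RT1, 108699844 on 14994 in RT2 and 85660188 on 15324 in RT3. The RT2 table differed from the others: it listed 18605 genes by symbol against 32285 in each other table, and its highest share of mitochondrial UMIs was 11.95%, whereas the other tables reached 91.5% to 97.0%. Each pair of libraries had 182 to 277 barcode sequences in common, 1.19% to 1.85% of a library's barcodes. Levels are given as CPM, the UMIs of a gene per 1000000 UMIs summed over the cells of 1 type in 1 library. Intervals and detection limits cover counting error only.

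Tumor cells were taken as barcodes with at least 3 UMIs of Rhox5, a homeobox gene that marks LLC cells, and none of Ptprc or Csf1r, the genes of the leukocyte antigen CD45 and the CSF1 receptor. This gate held 6114 barcodes in NT, 6660 in RT1, 6372 in RT2 and 7511 in RT3. Barcodes with exactly 3 Rhox5 UMIs were 7.42% to 10.3% of the gate, 592 in NT and 473 to 770 in RT, and those just outside, with exactly 2, were 574 in NT and 522 to 841 in RT. Hmga2, a chromatin protein of embryonic and tumor cells that was not used by the gate, was at 472 ± 36.2 CPM (mean ± SD, n = 4 libraries) in tumor cells and 18.0 ± 13.1 in fibroblasts. Fibroblasts were gated on collagen and held 8 barcodes in NT, 46 in RT1, 86 in RT2 and 114 in RT3, with 59262, 118108, 340287 and 348049 UMIs. All 10 fibroblast markers of the list had UMIs in the fibroblasts of the 4 libraries together. Their summed level was 68469 to 105211 CPM per library, against 945 to 1847 CPM in tumor cells. Col1a1, Col1a2, Dcn, Pdgfra and Pdgfrb made the gate, so this sum was high by choice. Col3a1, Lum, Postn, Fap and Thy1 were not used by it, and each was higher in fibroblasts in all 4 libraries. Lum was at 472 to 845 CPM against 20.4 to 174 in tumor cells, and Thy1 at 940 to 1350 against 0.263 to 1.46. Of the 8 NT fibroblasts, 3 carried at least 5 UMIs of the pericyte genes Rgs5, Notch3 and Acta2, against 0, 0 and 1 of the RT fibroblasts, and the pericyte markers summed to 4505 CPM there and 8.47, 17.6 and 31.6 CPM in the RT libraries. The NT fibroblast values therefore rest on few cells, some of which carry pericyte genes.

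The promoter sequences below are shown because the factors among the 10 genes are known to bind the E-box CAGGTG or its reverse complement CACCTG. Each run is the 250 bases before the transcription start, 5′ to 3′ on the strand of the gene, from RefSeq on GRCm38.p6, with the E-box in capitals. Krt8 (ENSMUSG00000049382) lies on the minus strand at chr15:102004343-102004592 and Krt18 (ENSMUSG00000023043) on the plus strand at chr15:102027966-102028215, next to each other on the chromosome. Vim (ENSMUSG00000026728), on the plus strand at chr2:13574061-13574310, and Snai1 (ENSMUSG00000042821), on the plus strand at chr2:167537945-167538194, are shown for comparison.
Krt8: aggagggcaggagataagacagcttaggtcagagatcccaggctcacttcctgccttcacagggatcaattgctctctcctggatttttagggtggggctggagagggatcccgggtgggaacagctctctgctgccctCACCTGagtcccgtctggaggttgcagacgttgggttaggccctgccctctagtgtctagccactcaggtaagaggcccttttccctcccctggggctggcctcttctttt
Krt18: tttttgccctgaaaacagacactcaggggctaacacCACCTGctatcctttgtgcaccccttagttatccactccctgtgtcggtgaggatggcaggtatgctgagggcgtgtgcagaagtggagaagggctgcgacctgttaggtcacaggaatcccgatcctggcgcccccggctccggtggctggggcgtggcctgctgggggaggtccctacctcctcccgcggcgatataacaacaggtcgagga
Vim: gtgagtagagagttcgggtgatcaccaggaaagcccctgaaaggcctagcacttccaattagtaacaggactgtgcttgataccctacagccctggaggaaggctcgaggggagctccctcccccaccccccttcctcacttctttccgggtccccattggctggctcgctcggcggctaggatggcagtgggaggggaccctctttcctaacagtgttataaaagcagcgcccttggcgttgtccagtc
Snai1: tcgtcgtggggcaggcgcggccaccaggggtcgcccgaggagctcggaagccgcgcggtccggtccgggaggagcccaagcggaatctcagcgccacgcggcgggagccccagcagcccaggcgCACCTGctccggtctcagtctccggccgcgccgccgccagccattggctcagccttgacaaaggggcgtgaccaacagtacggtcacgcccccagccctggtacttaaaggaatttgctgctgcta
The Krt8 run holds 1 match that starts 111 bases before the transcription start, the Krt18 run 1 at 214 bases and the Snai1 run 1 at 126 bases, whereas the Vim run holds none. Runs for Twist1 and Zeb2 were also read and hold none. The same letters occur in 5657 of 32851 promoter windows of this length, or 17.2%, so a match is common and describes the letters only.

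LLC tumor cells carried keratin and vimentin transcripts together, with almost no cadherin of either type (the plot of tumor cell levels). Krt8 stood at 789.8 CPM in NT, 555.9 in RT1, 671.3 in RT2 and 638.5 in RT3. Krt18 was detected on 1365, 691, 2384 and 671 UMIs, or 23.6 CPM in NT, 13.0 in RT1, 32.3 in RT2 and 10.2 in RT3. Krt8 was thus highest in the NT library, and Krt18 was highest in RT2 and lowest in RT3, with the NT value inside the range of the RT group. Vim, the intermediate filament of mesenchymal cells, was among the abundant transcripts, at 6058 CPM in NT, 5006 in RT1, 6136 in RT2 and 5965 in RT3. The NT value lay between RT3 and RT2, and RT1 was the lowest library.

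**Figure D1:**
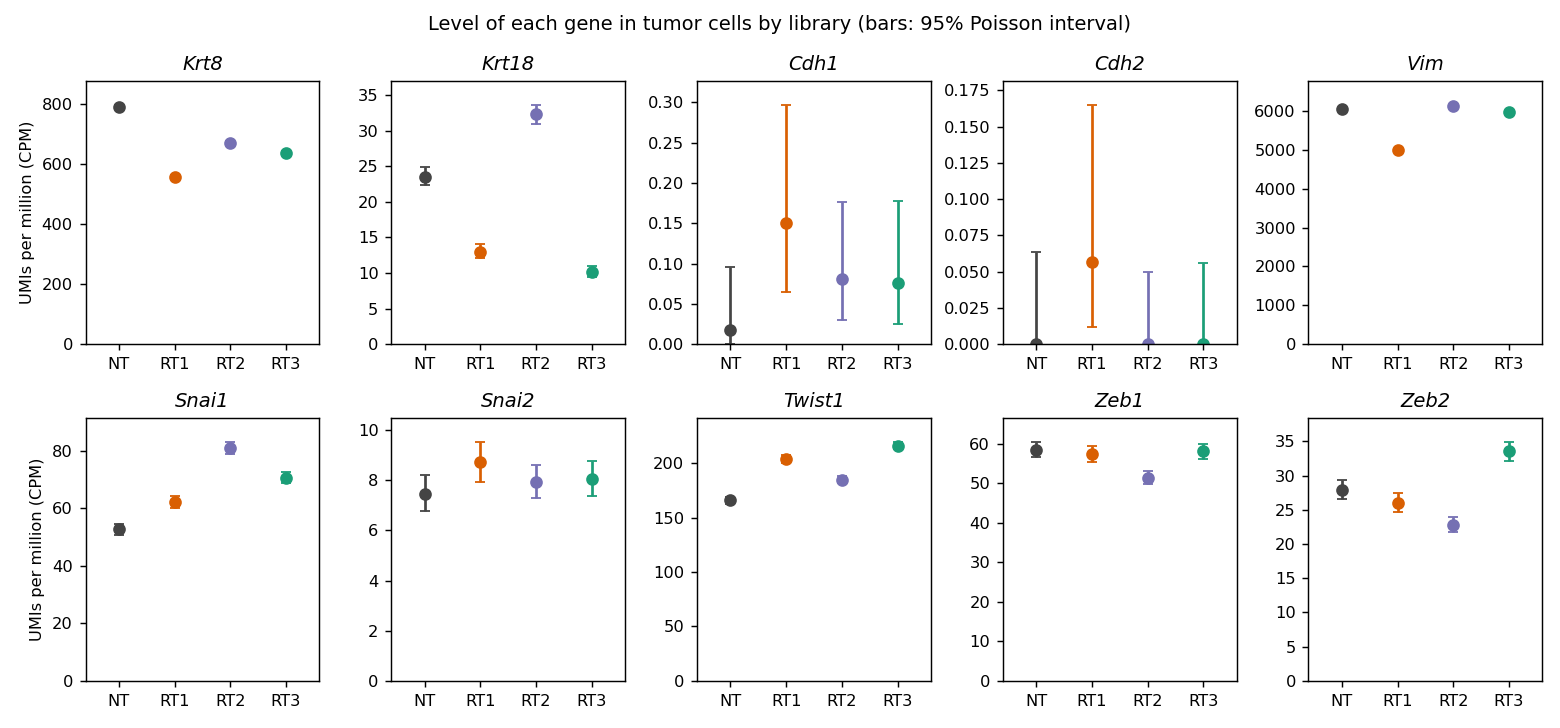
Levels of the 10 genes in tumor cells of the 4 libraries, in CPM on linear axes that start at 0 and have their own scale for each gene, with 1 point per library and exact Poisson 95% intervals, which for Krt8 and Vim are smaller than the points. Vim lies between 5006 and 6136 CPM and Krt8 between 555.9 and 789.8, whereas Cdh1 and Cdh2 lie at or under 0.151 CPM.

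E-cadherin, the adhesion molecule of epithelial junctions, was nearly undetected in the same cells. Cdh1 gave 1 UMI in NT, 8 in RT1, 6 in RT2 and 5 in RT3, which is 0.0173 to 0.151 CPM among the 250725873 UMIs of all tumor cells. N-cadherin, which often replaces it in mesenchymal cells, gave 3 Cdh2 UMIs in RT1 and 0 in the other libraries, where a count of 0 allows up to 0.0518 CPM in NT, 0.0406 in RT2 and 0.0456 in RT3. A switch from one cadherin to the other could not be read in either direction at these counts. Cdh1 was higher in the immune gates, at 3.53 CPM in NT and 4.24 to 8.39 in RT in myeloid cells, and at 1.99 to 13.6 CPM in T and NK cells on 1 to 6 UMIs, so the gene could be read in these libraries.

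All 5 transcription factors were detected in the tumor cells of every library. Twist1, a basic helix-loop-helix factor of mesoderm, was at 165.9 CPM in NT, 203.7 in RT1, 184.6 in RT2 and 216.0 in RT3. Snai1, a zinc finger repressor of Cdh1, was at 52.6 CPM in NT, 62.2 in RT1, 81.0 in RT2 and 70.6 in RT3. For both genes the NT library was the lowest of the 4. Its relative Snai2 was at 7.47 CPM in NT and at 8.71, 7.94 and 8.06 in RT1, RT2 and RT3. The zinc finger homeobox repressor Zeb1 was at 58.5 CPM in NT, 57.3 in RT1, 51.3 in RT2 and 58.0 in RT3, and Zeb2 at 28.0, 26.0, 22.8 and 33.5 CPM. The RT value lay inside the counting interval of NT for Snai2 in RT2 and RT3, and for Zeb1 in RT1 and RT3. For Snai2 the interval was 6.78 to 8.21 CPM in NT and 7.39 to 8.77 in RT3. For Zeb1 it was 56.5 to 60.5 CPM in NT and 56.2 to 59.9 in RT3. The intervals of NT and RT1 overlapped for Snai2 and Zeb2 as well.

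Within single cells, keratin and vimentin were found in the same barcode. To compare cells at 1 depth, tumor cells with at least 3000 UMIs were thinned to 3000, which kept 5935 cells in NT, 6252 in RT1, 6112 in RT2 and 7095 in RT3 and left out 179, 408, 260 and 416 shallower ones. At this depth Krt8 was found in 79.1% of NT cells, 70.0% in RT1, 73.2% in RT2 and 73.8% in RT3, and without thinning in 93.5%, 85.2%, 90.8% and 88.8%. In myeloid cells, which should lack it, the thinned share was 3.21% in NT, 8.54% in RT1, 8.02% in RT2 and 9.56% in RT3, with median depths of 4722 to 5739 UMIs before thinning against 6608.5 to 9479 in all tumor cells. The tumor share was thus far above that background, and the NT share was the highest of the 4 libraries with and without thinning. Krt18 was found in 5.78%, 3.65%, 7.36% and 2.59% of thinned tumor cells (12.4%, 6.95%, 16.8% and 5.84% without thinning), and in 0% to 0.608% of myeloid cells. Vim was found in 99.8% to 99.9% of thinned tumor cells and 95.7% to 99.6% of myeloid cells. Cells with a keratin UMI and a Vim UMI were 79.3% in NT, 70.2% in RT1 and 73.8% in both RT2 and RT3, and cells with Vim and no keratin 20.6%, 29.6%, 26.0% and 26.0%. Keratin without Vim was seen in 3, 7, 9 and 10 cells. At 3000 UMIs a cell without a keratin UMI can still express the gene.

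The transcription factors were found in fewer thinned cells than Krt8. Twist1 was found in 38.3% of NT cells and 41.7%, 39.2% and 44.3% in RT1, RT2 and RT3, with 1.07% to 4.41% in myeloid cells. Snai1 was found in 14.7%, 16.5%, 20.4% and 18.9% of tumor cells, with 0.535% to 1.98% in myeloid cells. Zeb1 was found in 15.2% to 15.7% and Snai2 in 1.95% to 2.42%, against 0% to 1.62% and 0% to 0.166% in myeloid cells, so Twist1, Snai1 and Zeb1 were above that background in every library and Snai2 in RT only, since 0 of 187 NT myeloid cells allows up to 1.95%. Zeb2 differed, with 6.80% to 9.34% of tumor cells against 43.3% to 48.5% of myeloid cells, where the gene is known to be active. At least 2 of the 5 factors were found together in 16.5% of NT cells, 17.9% in RT1, 19.4% in RT2 and 20.7% in RT3. A keratin UMI, a Vim UMI and at least 1 factor were found together in 46.8%, 43.3%, 45.8% and 48.7% of cells. Vim was found in nearly all cells, so this share rests on the keratins and the factors. Neither joint share was set against that expected from the single shares or against myeloid cells, so they are descriptions.

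Krt8 and Vim varied among cells by more than counting noise around 1 common level, where the variance would equal the mean. Over thinned cells the variance of Krt8 was 2.41 times the mean in NT and 2.22 to 2.38 times in RT. For Vim it was 3.52 times in NT and 3.44 to 4.38 times in RT. The Krt8 mean was 2.42 UMIs per cell in NT, 1.71 in RT1, 2.01 in RT2 and 2.00 in RT3. Krt18 went with its partner: in NT its level was 5.64 CPM in cells with no Krt8 UMI, 10.6 with 1, 24.9 with 2 to 3 and 58.9 with 4 or more. The same order held in RT1 (3.02 to 44.0 CPM), RT2 (10.8 to 78.9) and RT3 (2.15 to 30.4). Vim differed little over these classes, from 6115 to 6596 CPM in NT between cells with no Krt8 UMI and those with 4 or more, and from 5067 to 5513 in RT1, 6381 to 6679 in RT2 and 6061 to 6766 in RT3. The correlation of Krt8 and Vim UMIs over thinned cells was weak and above 0 (Pearson's r 0.0579 over 5935 cells in NT, 0.0779 over 6252 in RT1, 0.0440 over 6112 in RT2 and 0.0787 over 7095 in RT3). Cells of 1 library share its preparation, so these values are descriptions.

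The comparison of RT with NT asks whether radiation moved tumor cells along this axis (the plot of RT over NT). Of the 10 genes, 8 had at least 100 UMIs over the tumor cells of the 4 libraries, and only Cdh1 and Cdh2 fell under this limit. Of the 8, Snai1, Snai2 and Twist1 were above NT in all 3 RT libraries, where 30.1% of 12240 genes were, and Krt8 and Zeb1 were below NT in all 3, where 32.6% of genes were. For Zeb1 the side depended on the scaling, since RT3 was above NT under TMM and median ratio factors (log2 ratio 0.022 and 0.026) and its difference was within counting error. None of the 8 reached 1.5 times in 1 direction in all 3 RT libraries, a size that 7.15% of genes reached upward and 1.07% downward. The median of the 8 mean log2 ratios was -0.06, beside -0.03 over all 12240 genes.

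Krt8 had a log2 ratio to NT of -0.51 in RT1, -0.23 in RT2 and -0.31 in RT3 (mean -0.35, SD 0.14), from 789.8 CPM in NT to 622 ± 59.5 CPM in RT (SD, n = 3). Its lower value in RT was present in each class of tumor cells examined, at 845 CPM in NT and 578, 657 and 701 in the 3 RT libraries in non-cycling cells, and at 735 CPM and 546, 703 and 581 in cycling cells. Krt18, its partner, did not keep 1 direction, with -0.86 in RT1, 0.45 in RT2 and -1.21 in RT3. Its mean log2 ratio was -0.54 with all 3 RT libraries, -0.38 without RT1, -1.03 without RT2 and -0.20 without RT3. For Snai1 the log2 ratio was 0.24 in RT1, 0.62 in RT2 and 0.42 in RT3 (mean 0.43, SD 0.19). Snai1 was above NT in non-cycling cells (71.9 CPM in NT and 77.3, 96.3 and 88.6 in RT) and in cycling cells (41.8 CPM and 45.1, 60.9 and 54.7). Its mean log2 ratio in non-cycling cells alone was 0.28.

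Twist1 had log2 ratios of 0.30, 0.15 and 0.38 and Snai2 of 0.22, 0.09 and 0.11 in RT1, RT2 and RT3. In non-cycling cells alone the mean ratio of Twist1 was 0.10 and that of Snai2 was -0.15, so the direction for Snai2 was lost there. Vim had -0.28, 0.02 and -0.02, and Zeb2 had -0.10, -0.29 and 0.26, with the 3 RT libraries not on 1 side of NT. Several other values moved with the group: the share of cycling cells among thinned tumor cells was 33.9% in NT and 28.7%, 15.4% and 25.8% in the RT libraries, and that of cells high in the matrix genes Lum, Islr and Fbn1 was 5.12% and 17.5%, 16.9% and 7.85%. Myeloid markers summed to 19.1 CPM in NT tumor cells and to 90.0, 110.5 and 65.7 CPM in RT, on 6 of 8 listed markers with Lyz2 the most abundant (14.9, 71.4, 77.6 and 52.3 CPM) and Csf1r and Ptprc at 0 by the gate. Neutrophil markers summed to 2.59 CPM in NT tumor cells and 8.39, 13.0 and 9.26 CPM in RT. For T and NK markers the sums were 0.707 CPM in NT and 2.90, 2.56 and 1.41 in RT. Of these, Cd3d, Cd3e and Ncr1 were each under NT in at least 1 RT library. Fibroblast markers summed to 945 CPM in NT and 1847, 1467 and 1453 CPM in RT, with Col3a1 the most abundant (796 CPM in NT and 1337, 1159 and 1137 in RT), 9 of 10 detected in NT, where Postn was at 0, and 10 of 10 in RT. Pdgfrb of this list went the other way, at 11.8 CPM in NT and 5.48, 5.11 and 7.19 in RT, and Fap in RT3 and Thy1 in RT1 were under their NT values as well. The part of these transcripts in the values of the 10 genes was not tested.

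**Figure D2:**
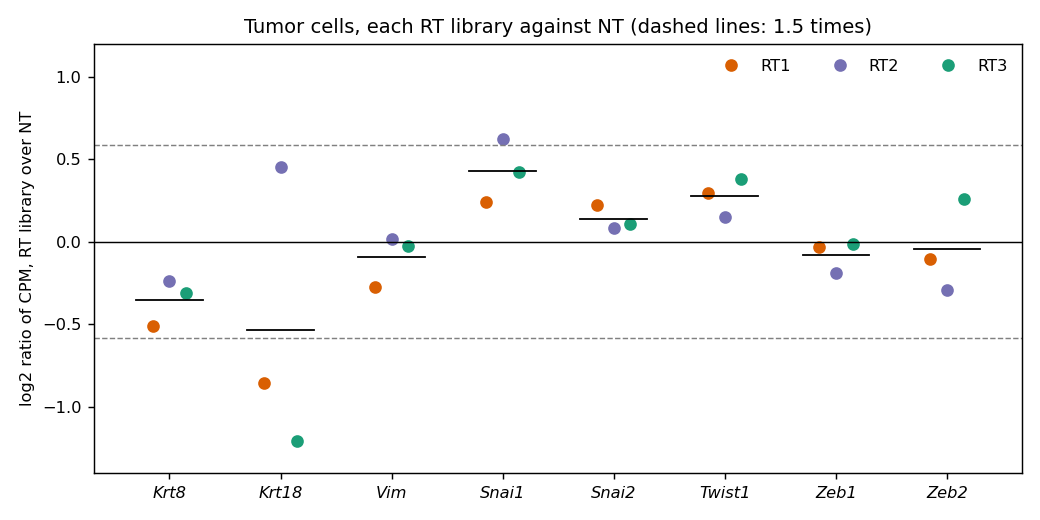
Log2 ratio of each RT library to the NT library in tumor cells, 1 point per RT library, for the 8 genes with at least 100 UMIs, with short black lines at the mean of the 3 and dashed lines at 1.5 times. Snai1, Snai2 and Twist1 lie above 0 in all 3 libraries and Krt8 below 0, whereas Krt18 spans -1.21 to 0.45.

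Other genes of the 2 programs were read from lists chosen by function. Of 33 other mesenchymal genes with at least 100 UMIs, 17 were above NT in all 3 RT libraries, 4 were below and 12 lay on both sides, and the median log2 ratio was 0.31. Over all genes these shares were 30.1% above and 32.6% below, with a median of -0.03, and they are the background for each list here. Past 1.5 times there were 7 higher, where 7.15% of all genes were, among them Mmp2, a gelatinase that cuts basement membrane collagen, at 16.4 CPM in NT and 67.3, 43.9 and 37.6 in the RT libraries, and Tpm2, a tropomyosin of actin filaments, at 26.7 CPM and 79.2, 92.3 and 54.4. The other 2 with the largest ratios were low, Mmp3 at 2.90 CPM in NT and 6.47 to 15.5 in RT, and the matrix glycoprotein Tnc at 0.138 CPM and 0.821 to 1.37. No gene of the list was past 1.5 times lower, and under TMM or median ratio scaling the fibronectin gene Fn1 also passed (397 CPM in NT and 911, 726 and 592 in RT), a gene named after its values were seen. Cells high in Lum, Islr and Fbn1 were a larger share in each RT library than in NT. Cycling cells were a smaller one. Of 29 list genes tested, 20 were higher and 6 lower in cells high in these matrix genes. In cycling cells 2 were higher and 21 lower. The fibroblast markers, with Postn, Thy1, Col3a1 and Fap of this list, summed to 945 CPM in NT tumor cells and 1847, 1467 and 1453 in RT. The part of these in the list's values was not tested. Of 13 other epithelial genes, 3 were above NT, 5 below and 5 on both sides, with a median of -0.14, and 1 passed, the desmosomal plakophilin Pkp2, lower at 29.7 CPM in NT and 14.0, 11.2 and 14.1 in RT.

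Of 18 other transition factors, 5 were above NT, 4 below and 9 on both sides, and none passed 1.5 times (median 0.08). Of 10 catenins and partners of the keratin network, 1 was above, 6 below and 3 on both sides (median -0.27), and under TMM or median ratio scaling 4 were below and 5 on both sides. Over all genes 30.1% were above NT and 32.6% below. Of 12 regulators of simple keratins 1 was above, 7 below and 4 on both sides (median -0.26), and none was past 1.5 times in either list. Only 4 of the 15 genes of lung epithelial identity reached 100 UMIs, with 2 above NT and 2 on both sides. The surfactant genes Sftpb and Sftpc were among the listed genes that the RT2 table does not hold, and both gave 0 UMIs in each other table. Over all the lists, genes missing from RT2 gave 0 to 8 UMIs in each other table, with 8 for Krt17 in RT3.

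**Figure D3:**
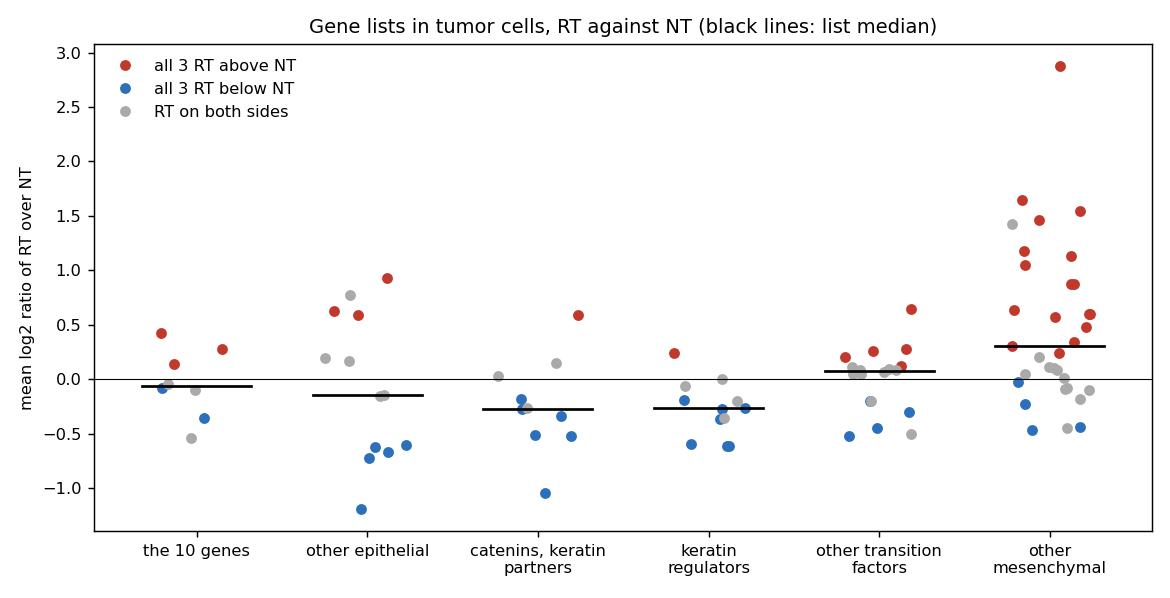
Mean log2 ratio of the 3 RT libraries to NT in tumor cells, 1 point per gene with at least 100 UMIs, for the 10 genes and 5 other lists, spread sideways for legibility only. Red and blue points had all 3 RT libraries above or below NT, grey points lay on both sides, and black lines are list medians, from -0.27 for catenins and keratin partners to 0.31 for other mesenchymal genes.

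Across 6 gated populations, the 10 genes had different homes (the plot of populations). Krt8 was highest in tumor cells in all 4 libraries, at 664 ± 97.0 CPM (SD, n = 4). Next came neutrophils at 134 CPM over the 3 RT libraries, on 10 to 15 UMIs in each, with intervals below the tumor values. The tumor markers Rhox5, Krt8, Krt18, Lgals1 and Hmga2 together gave RT1 neutrophils 541 CPM, RT2 neutrophils 504 and RT3 neutrophils 780. Lgals1 led in RT1 (150 CPM) and RT2 (185), and Rhox5 in RT3, at 312 CPM against 1265 in RT3 tumor cells. The part of tumor RNA in the neutrophil values of Krt8 was not tested. In NT, neutrophils held 1 Krt8 UMI, with an interval of 5.83 to 1283 CPM that covers the tumor value. T and NK cells (33.7 CPM), myeloid cells (30.8), endothelial cells (24.4) and fibroblasts (22.4) followed with overlapping ranges. Krt18 was at 19.8 CPM in tumor cells and at 0 to 12.8 CPM in all other sums, of which the highest, RT2 neutrophils, rests on 2 UMIs. Only in RT2 did the tumor value lie above what a count of 0 allows in each population without a UMI, since this was up to 50.6 CPM in NT fibroblasts, 34.5 in RT1 neutrophils and 52.0 in RT3 neutrophils. Endothelial cells were highest for Vim in all 4 libraries, at 8978 ± 760 CPM, apart from tumor cells at 5791 ± 528, which overlapped with myeloid cells at 4542 and, through them, fibroblasts at 3832.

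**Figure D4:**
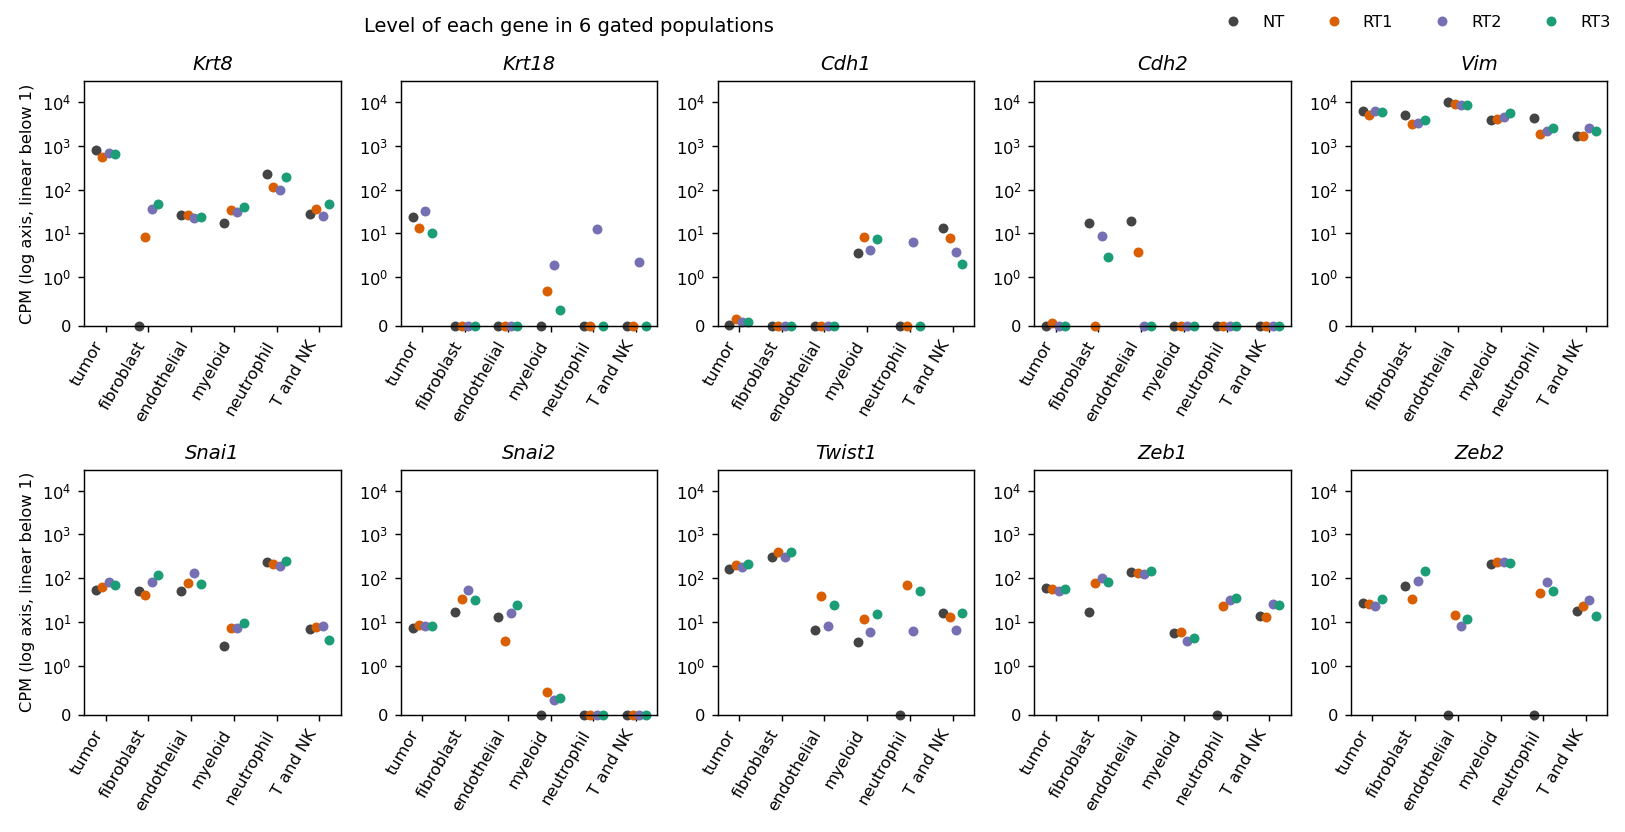
Levels of the 10 genes in 6 gated populations, in CPM on an axis that is log from 1 CPM up and linear below, with 1 point per library. By the mean of the 4 libraries Krt8 is highest in tumor cells, Vim and Zeb1 in endothelial cells, Twist1 and Snai2 in fibroblasts and Zeb2 in myeloid cells.

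The factors were each highest outside the tumor cells. Twist1 was highest in fibroblasts in all 4 libraries, at 352 ± 56.9 CPM, with tumor cells next at 193 ± 22.0 and apart from them, and the other populations at 0 to 69.0 CPM per library, with the highest values in RT1 neutrophils on 6 UMIs, RT3 neutrophils (52.0) on 3 and RT1 endothelial cells (40.3) on 11. Snai2 was at 33.8 CPM in fibroblasts, on 1 UMI in NT, at 14.2 in endothelial cells and at 8.04 in tumor cells, with overlapping ranges, and at 0 to 0.473 CPM in myeloid cells. Neutrophils and T and NK cells gave no Snai2 UMI, and a count of 0 allows up to 2.23 to 7.82 CPM in T and NK cells and 34.5, 19.1 and 52.0 CPM in neutrophils of RT1, RT2 and RT3, above the fibroblast values of RT1 and RT3. The NT neutrophil sum held 4344 UMIs, where a count of 0 allows up to 691 CPM for any gene, so neutrophils could not be ordered in NT. Zeb1 was highest in endothelial cells, at 134 ± 9.12 CPM, apart from fibroblasts at 68.4, which overlapped with tumor cells at 56.3. Zeb2 was highest in myeloid cells, at 225 ± 14.1 CPM, apart from fibroblasts at 83.3, and tumor cells were at 27.6. For Snai1 the order was neutrophils at 214 CPM over the 3 RT libraries, endothelial cells at 82.9, fibroblasts at 74.0 and tumor cells at 66.6, where the last 3 overlapped and the neutrophil value rests on 14 to 30 UMIs in each library. Cdh2 gave 5 UMIs in all fibroblasts and 4 in all endothelial cells, too few to order.

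Fibroblasts are the reference for the mesenchymal end of the axis, and the tumor cells differed from them in most of the genes that could be tested. Sums of both populations in the 4 libraries were compared with edgeR's quasi-likelihood test with the library as a block. With the p-values adjusted by Benjamini and Hochberg over 12276 genes, 19.7% of genes were higher in tumor cells and 15.1% lower, and of the 10 genes 3 were higher, 3 were lower, 2 did not pass and Cdh1 and Cdh2 were too low to test. The p-values measure the spread between these 4 libraries, in which each RT library is 1 tumor and NT is a pool.

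Krt8 gave 0 UMIs in NT fibroblasts, 1 in RT1, 12 in RT2 and 16 in RT3, or 0, 8.47, 35.3 and 46.0 CPM, and was higher in tumor cells by 4.27 on the log2 scale (SE 0.29, adjusted p = 4.8e-46, 4 of 4 libraries). For Krt18 no UMI was found among 865706 fibroblast UMIs, and tumor cells were at 20.4 CPM over all libraries. This was at least 5.88-fold higher than the 3.47 CPM that 3 counts over the fibroblasts of all libraries would give. Krt18 could pass the filter on low counts only through the tumor cells, so its place among the genes called higher is a description. Krt8 thus separated the populations in every library, whereas for Krt18 a count of 0 allows up to 50.6 CPM in NT fibroblasts and 25.4 in those of RT1, above the tumor values there. Vim was at 5113, 3065, 3224 and 3925 CPM in fibroblasts of NT, RT1, RT2 and RT3, and was higher in tumor cells in 4 of 4 libraries by 0.52 (SE 0.16, adjusted p = 0.0047). Without RT1 the value for Vim was 0.50 with an adjusted p of 0.060, and with DESeq2 it was 0.43 with 0.056, so this call depended on both.

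Twist1 was at 304, 406, 303 and 397 CPM in fibroblasts and lower in tumor cells by 0.98 on the log2 scale, a log2 fold change of -0.98 (SE 0.22, adjusted p = 5.3e-05). Snai2, at 16.9, 33.9, 52.9 and 31.6 CPM in fibroblasts on 1 to 18 UMIs, was lower in tumor cells in 4 of 4 libraries (-2.36, SE 0.43, adjusted p = 2.8e-07). Zeb2, at 67.5, 33.9, 85.2 and 146.5 CPM, was lower too (-1.85, SE 0.29, adjusted p = 1.3e-09). In none of the 4 libraries did a tumor value of these 3 factors reach that of the fibroblasts. Snai1 (50.6, 42.3, 82.3 and 120.7 CPM in fibroblasts) and Zeb1 (16.9, 76.2, 99.9 and 80.4) did not pass, with -0.38 (adjusted p = 0.29) and -0.64 (adjusted p = 0.053). Without RT3 the value for Snai1 was 0.052 (adjusted p = 0.94), and without NT, where 1 Zeb1 UMI was counted, that for Zeb1 was -0.82 (adjusted p = 0.0032).

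Most other mesenchymal genes were lower in tumor cells than in fibroblasts. Of 38 tested, 26 were lower in tumor cells and 7 higher, where 15.1% of all genes were lower and 19.7% higher. The median log2 fold change was -2.42, beside 0.11 over all genes with those at 0 UMIs in fibroblasts set to their bound. The largest differences were Postn (periostin, -12.17, SE 0.31), Lox (lysyl oxidase, -11.98, SE 0.33), Thy1 (-10.88, SE 0.30) and Tnc (-9.77, SE 0.30), all under 1 CPM on average in tumor cells and at 713 to 2438 CPM in fibroblasts. Genes this low in tumor cells could pass the filter on low counts through the fibroblasts, where they were high, so these values and the count of lower genes are a description. Postn, Thy1, Col3a1 and Fap of this list are also fibroblast markers of the list used to check the gate, and the gate itself required collagen. Lgals1 of this list is also a listed tumor marker. Higher in tumor cells were S100a4, a calcium-binding protein long used as a fibroblast marker, at 6598 ± 2124 CPM against 481 ± 203 (3.67, SE 0.19), Tpm2 (1.84, SE 0.39), Tpm1 (1.58, SE 0.23) and the galectin gene Lgals1 (1.26, SE 0.21).

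Few of the other epithelial genes had enough UMIs for this comparison. The shares of all genes to read these lists against are 19.7% higher and 15.1% lower. Of 41 listed, 13 could be tested, 8 of them with 0 fibroblast UMIs, and 2 were higher in tumor cells, among them Pkp2 (17.2 ± 8.42 CPM against 0 fibroblast UMIs), while Jup (plakoglobin, -3.28, SE 1.15) and Krt80 (-1.44, SE 0.49) were lower. Genes with 0 fibroblast UMIs, in this list and those below, could pass the filter on low counts only through the tumor cells. Their calls, and the counts that hold them, are a description. Of 19 other transition factors, 5 were higher, among them Hmga2 (4.20, SE 0.31), Id1 (2.63, SE 0.62), Sox9 (2.08, SE 0.28) and Foxc1 (1.80, SE 0.63), and 7 were lower, led by Sox4 (-9.76, SE 0.56), Klf4 (-4.91, SE 0.22), Prrx2 (-4.64, SE 0.82) and Id2 (-1.50, SE 0.24). Hmga2 is also the listed tumor marker that was read above to check the tumor gate. Genes low in tumor cells could pass the filter through the fibroblasts, so the lower values and counts of this paragraph are a description too. Among keratin regulators, Tfap2a (45.4 ± 5.01 CPM, 0 fibroblast UMIs), Fosl1 (3.67, SE 0.53) and Ets1 (2.60, SE 0.45) were higher, and Ets2, Fos and Jund lower. A count of 0 allows up to 50.6 CPM in NT fibroblasts, above the tumor mean of Tfap2a. Among catenins and keratin partners, 4 of 10 were higher, Prph (17.1 ± 3.46 CPM, 0 fibroblast UMIs), Lmnb1, Lmna and Ctnnb1 (beta-catenin, 0.91, SE 0.21), and Ppl was lower (-1.84, SE 0.46). The tumor means of Prph and Pkp2 lie below the 50.6 and 25.4 CPM that a count of 0 allows in NT and RT1 fibroblasts. The alveolar cell gene Hopx was the only 1 of 4 lung identity genes past the test (2.90, SE 0.44).

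Within the tumor cells, the 10 genes were next compared along 3 splits of thinned cells, each fitted in the same way (the plot of fits). Cycling cells had at least 2 UMIs of the proliferation genes Mki67 and Top2a and non-cycling cells had none. Before thinning, cycling cells were deeper, with medians of 8421 to 15018 UMIs against 6150.5 to 8658.5. Of 10904 genes, 24.4% were higher in cycling cells and 25.8% lower, and of the 8 tested among the 10 genes none was higher and 4 were lower.

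Snai1 had the largest difference of these, at 41.8, 45.1, 60.9 and 54.7 CPM in cycling cells of NT, RT1, RT2 and RT3 and at 71.9, 77.3, 96.3 and 88.6 in non-cycling cells (-0.78, SE 0.06, edgeR adjusted p = 9.4e-10). Its level was lower in cycling cells in each library, and the ranges over libraries did not overlap. Vim was lower in 4 of 4 libraries as well, at 5388 ± 457 CPM against 6523 ± 601 (-0.33, SE 0.05, adjusted p = 3.6e-06). Zeb1 (-0.22, SE 0.08, adjusted p = 0.027) and Krt8 (-0.17, SE 0.05, adjusted p = 0.012) were lower in 3 of 4 libraries. These calls for Zeb1 and Krt8 rested on single libraries: the adjusted p for Krt8 was 0.078 without NT, 0.052 without RT1 and 0.17 without RT3, and for Zeb1 0.29 without NT and 0.059 without RT2. Krt18, Snai2, Twist1 and Zeb2 did not pass. Among 29 other mesenchymal genes, 21 were lower in cycling cells, led by Fn1 (-1.90, SE 0.10), Mmp2 (-1.39, SE 0.11), Fap (-1.29, SE 0.31) and Mmp14 (-1.11, SE 0.09), and 2 were higher, Tpm2 (0.26, SE 0.06) and Tpm1 (0.16, SE 0.06). Over all genes 25.8% were lower and 24.4% higher. The fibroblast genes Dcn (16.1, 114, 33.3 and 76.9 CPM in cycling cells against 61.0, 271, 146 and 177 in non-cycling cells) and Col1a1 (0.995, 2.41, 5.67 and 2.36 against 3.19, 3.99, 13.0 and 8.45) were lower in cycling cells in each library as well, whereas Col1a2 was lower in the 3 RT libraries and not in NT (0.497 against 0.228 CPM, on 3 and 2 UMIs). Their part in these differences was not tested.

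**Figure D5:**
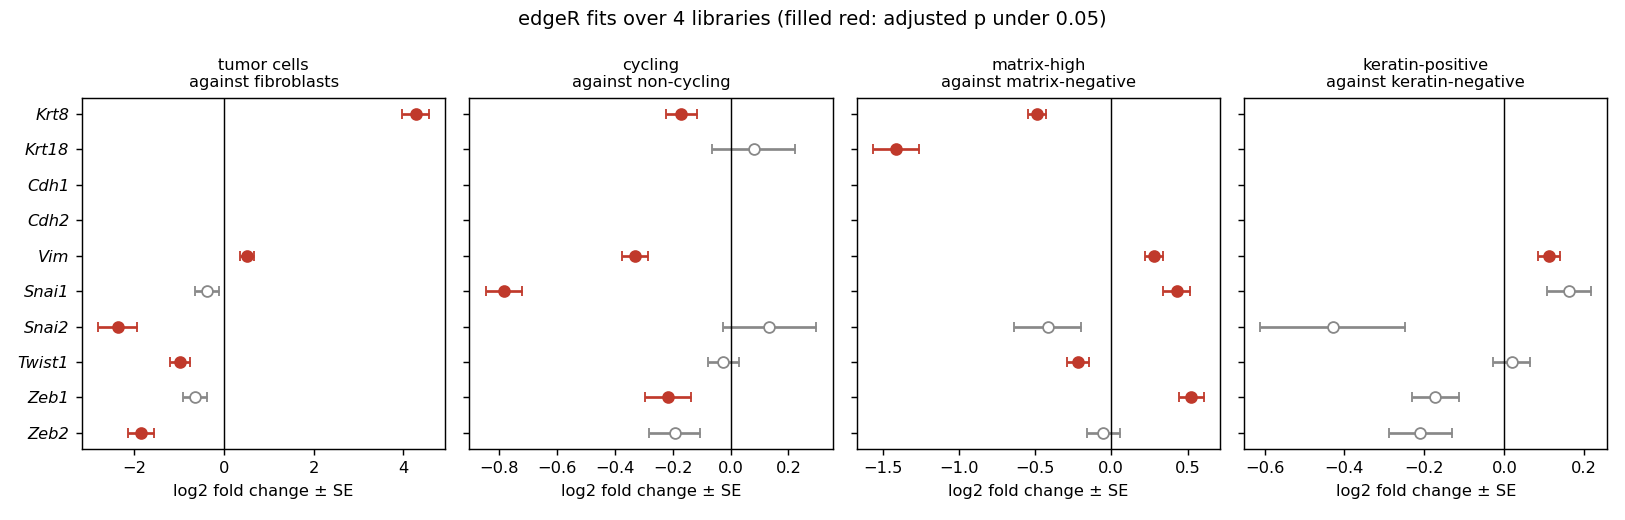
Log2 fold changes from edgeR with SE bars in 4 comparisons, each on its own axis: tumor cells against fibroblasts, and cycling, matrix-high and keratin-positive tumor cells against their counterparts, with filled red points for an adjusted p under 0.05. Krt18 is not drawn against fibroblasts, where it had 0 UMIs, and genes that were not tested have no point. Krt8 is far to the right against fibroblasts (4.27) and to the left in matrix-high cells (-0.49), where Zeb1 lies to the right (0.52).

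Matrix-high tumor cells carried at least 2 UMIs of Lum, Islr and Fbn1, genes of collagen-binding and microfibril proteins, and matrix-negative cells carried none. Between them the keratins and several mesenchymal genes went in opposite directions, and 3 of the 8 tested genes were higher and 3 lower, where 19.5% of 10950 genes were higher and 21.1% lower. Krt8 was at 615, 419, 493 and 461 CPM in matrix-high cells of NT, RT1, RT2 and RT3 and at 822, 619, 724 and 692 in matrix-negative cells (-0.49, SE 0.06, edgeR adjusted p = 1.4e-06). Krt18 was at 8.80 ± 5.46 CPM against 23.5 ± 12.0 (-1.41, SE 0.15, adjusted p = 2.5e-07). Both keratins were lower in matrix-high cells in all 4 libraries, as was Twist1 (-0.22, SE 0.07, adjusted p = 0.019), whose call was lost without RT2 (adjusted p = 0.13) or RT3 (0.11).

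Zeb1 was higher in matrix-high cells in every library, at 74.6, 68.0, 73.4 and 78.4 CPM against 55.5, 52.3, 49.9 and 53.1 (0.52, SE 0.08, edgeR adjusted p = 2.4e-05), and the ranges did not overlap. Snai1 (0.43, SE 0.09, adjusted p = 0.00045, and 0.12 when cells were thinned to 1500 UMIs) and Vim (0.28, SE 0.06, adjusted p = 0.00042) were higher in 4 of 4 libraries, and Snai2 and Zeb2 did not pass. Of 29 other mesenchymal genes, 20 were higher, led by Fap (2.90, SE 0.28), Mmp2 (2.85, SE 0.13), Mmp3 (2.79, SE 0.22) and Fn1 (2.05, SE 0.12), and 6 were lower, among them Axl (-0.33, SE 0.07) and Tpm2 (-0.28, SE 0.09). Of 8 other epithelial genes, Krt80 (-1.84, SE 0.26), Elf3 (-1.81, SE 0.50) and Pkp2 (-1.46, SE 0.18) were lower and Tjp1 (0.31, SE 0.10) higher. Over all genes 19.5% were higher and 21.1% lower, the shares to read both lists against. The tumor marker Rhox5 was at 899, 1385, 1148 and 1215 CPM in matrix-high cells and 1180, 1433, 1265 and 1330 in matrix-negative cells. The fibroblast genes Col1a1 (13.2, 9.14, 42.8 and 53.3 CPM against 1.59, 3.15, 4.90 and 2.60) and Dcn (280, 749, 414 and 632 against 20.6, 71.3, 39.3 and 80.7) moved with the split in each library, and Col1a2 in the 3 RT libraries but not in NT (0 against 0.462 CPM, on 0 and 7 UMIs). Their part in these differences was not tested. Barcodes with at least 1% collagen, as in the fibroblast gate, numbered 0 in NT, 3 in RT1, 1 in RT2 and 3 in RT3 among the tumor cells.

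The last split asked which genes go with the keratins. Keratin-positive cells had at least 2 UMIs of Krt8 and Krt18 together and made up 56.9% of thinned tumor cells in NT, 43.0% in RT1, 49.1% in RT2 and 48.8% in RT3, and keratin-negative cells, with none, 20.6%, 29.7%, 26.1% and 26.1%. Depth before thinning was close, with medians of 6762.5 to 9839 UMIs against 6969 to 9484. Far fewer genes passed than in the other splits, 4.77% of 10825 genes higher and 2.5% lower, and of the 6 remaining genes tested Vim was higher and none was lower. Vim was at 6455, 5391, 6575 and 6450 CPM in keratin-positive cells of NT, RT1, RT2 and RT3 and at 6141, 5073, 6393 and 6057 in keratin-negative cells (0.11, SE 0.03, edgeR adjusted p = 0.015). The direction was the same in 4 of 4 libraries, but the call was lost without RT1 (adjusted p = 0.15), without RT3 (0.082) and with DESeq2 (0.13). Snai1 (0.16, adjusted p = 0.087), Zeb1 (-0.17, adjusted p = 0.083), Zeb2 (-0.21, adjusted p = 0.12), Snai2 (-0.43, adjusted p = 0.18, and 0.036 without RT3) and Twist1 (0.02, adjusted p = 0.87) did not pass.

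Of the listed genes, 2 of 8 other epithelial genes, 3 of 10 catenins and keratin partners and 4 of 10 keratin regulators were higher in keratin-positive cells, where 4.77% of all genes were. These were Krt80 (0.89, SE 0.15) and Pkp2 (0.60, SE 0.11), the intermediate filament gene Prph (1.21, SE 0.12), the keratin linker Plec (0.58, SE 0.08), Lmna (0.36, SE 0.05) and the AP-1 subunits Fosl1 (0.57, SE 0.07), Jund (0.19, SE 0.04), Fos (0.19, SE 0.04) and Junb (0.18, SE 0.04). Of 29 other mesenchymal genes 5 were higher, with Lgals1 (0.54, SE 0.04), S100a4 (0.41, SE 0.03) and Tpm2 (0.28, SE 0.06) among them, and 11 were lower, led by Mmp3 (-1.34, SE 0.23), Vcan (-0.62, SE 0.07), Mmp2 (-0.57, SE 0.07) and Fn1 (-0.52, SE 0.04). Over all genes 2.5% were lower. The fibroblast gene Col1a1 was at 1.18, 2.73, 4.33 and 4.72 CPM in keratin-positive cells of NT, RT1, RT2 and RT3 against 3.54, 7.53, 7.53 and 11.9 in keratin-negative cells, and Dcn at 27.7, 158, 79.7 and 112 against 62.4, 267, 176 and 179. Col1a2 was lower in keratin-positive cells of the 3 RT libraries and not in NT (0.494 against 0.273 CPM, on 5 and 1 UMIs). Their part in these differences was not tested. Over all genes with at least 20 CPM, the largest differences upward were Crip1 (1.21, SE 0.10), Itgb7 (0.74, SE 0.07), Ppp1ca, Mgst3, Tinagl1, Ifitm1, Rpl35 and Rps15, and downward the proteoglycan genes Lum (-1.04, SE 0.06) and Dcn (-0.85, SE 0.07), the fibrillin gene Fbn1 (-0.72, SE 0.07), Cd274 (-0.70, SE 0.12), Il1rl1, Vcan, Col5a2 and Abcb1b. Lum and Fbn1 on the lower side are also genes by which the matrix split was made, so the matrix and keratin splits are not independent. Without NT, 311 genes were higher and 142 lower, and without RT1 293 and 120, against 516 and 271 with all libraries.

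Over the 24 sums of 6 populations in 4 libraries, the genes whose pattern was most like that of Krt8 were Syne2 (Pearson's r of log2(CPM + 1) 0.891), Fam129a, Hs6st1, Nptxr and Myc (0.826). For Krt18 they were Dlx4 (0.976), Glt28d2, 1700012B09Rik, Cldn9 and Rgs20 (0.923), and for Vim Hyal2 (0.874), Insr, Apol10b, Sept10 and Btbd3 (0.831). Sums of 1 library share its preparation and depth, and for the keratins these values mostly separate tumor cells from the other populations, so they describe likeness over 24 sums that are not independent. For Cdh2, with 12 UMIs in the 24 sums, none was computed.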

How the data were processed

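The authors prepared libraries with the SeekOne MM 3′ kit and deposited whole-number UMI counts per gene and barcode, without normalization, 1 table per library with cells already called. The paper names SeekOne Tools for this step, and the submitters' processing notes name STAR 2.5.1b, featureCounts of Subread 1.6.4, Cell Ranger and the builds GRCm39 and mm39. How reads shared by near-identical genes were split is not given in the sources used here. Libraries were joined on 18577 symbols, which left out 0.0737% to 0.0837% of UMIs. A barcode needed at least 200 genes and no more than 20% mitochondrial UMIs.

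The 10 genes, the gates and the gene lists were chosen with earlier results of these data known. Besides the tumor gate, fibroblasts had Ptprc, Csf1r, Pecam1 and Cdh5 at 0, under 3 Rhox5 UMIs, at least 1% of UMIs from Col1a1 and Col1a2 and at least 1 UMI of Dcn, Pdgfra or Pdgfrb. Endothelial cells had at least 3 UMIs of Pecam1 and Cdh5, myeloid cells at least 2 of Csf1r, T and NK cells at least 3 of Cd3d, Cd3e, Cd3g and Nkg7, and neutrophils at least 1% of UMIs from S100a8 and S100a9, and 1 NT barcode fell in 2 gates. No doublet caller was run; the 5% of tumor cells with the most UMIs were removed as an alternative instead. Promoter runs were read from a RefSeq table, which had an entry for 8 of the 10 genes; those of Cdh2 and Zeb1 are not reported here, nor are some list genes that the naming rule would give.

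Levels are CPM with exact Poisson intervals, shares have exact Clopper-Pearson intervals at 95%, and RT libraries were set against NT by log2 ratios, with a size rule of 1.5 times in all 3 RT libraries among genes with at least 100 UMIs. Comparisons within libraries used edgeR 4.0.16 (R 4.3.3; TMM, filterByExpr, quasi-likelihood test, library as a block, Benjamini-Hochberg adjustment at 0.05). SE were taken from the test's F statistic. Counts were simulated for tumor cells against fibroblasts (18567 genes) and for the keratin split (18572 genes). In the first, 58% of genes changed by a log2 of 1 and 100% of those changed by 2 were recovered, with 6 false calls. In the keratin split these were 67%, 96% and 3. Changed genes were drawn from those expected at 5 or more UMIs in the smallest sum, with 1 fixed dispersion of 0.05. Krt18, Snai1, Snai2, Zeb1 and Zeb2 lay below this limit in the first, so its rates do not cover them. Genes that made a gate or split were left out of its fit. Named were the 10 genes, up to 4 genes of each list per direction, the 8 largest differences of the keratin split per direction with a mean of at least 20 CPM, and the 5 genes most like Krt8, Krt18 and Vim. Alternatives were DESeq2 1.42.0, other scalings, gates, filters and thinning depths, no block, and each library left out; the fits in non-cycling and matrix-negative cells alone were added after seeing the data.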

Additional observations from a re-analysis of the deposited data

Results flagged for a closer look

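Krt8 in myeloid cells lay on the other side of NT from Krt8 in tumor cells, in every RT library. It was at 17.7 CPM in NT (25 UMIs), 34.0 in RT1 (288), 31.3 in RT2 (413) and 40.1 in RT3 (121), a mean log2 ratio of 0.98, whereas in tumor cells all 3 RT libraries were below NT (-0.35). This difference between populations was not tested, since NT is 1 library. The tumor gene Rhox5 was present at low level in the same myeloid barcodes, at 21.9 CPM in NT and 44.0, 31.2 and 45.4 in the RT libraries, and in barcodes with no Rhox5 UMI Krt8 was at 18.4 CPM in NT and 26.2, 29.2 and 31.9 in RT. The part of tumor RNA in these values was not tested.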

How the results depend on the processing

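The comparisons with NT are limited by the single pooled control library and those with fibroblasts by depth (8 NT fibroblasts, 34 fibroblast UMIs of Snai2 in all), and Cdh1 and Cdh2 lie too near the detection limit for any fold. For RT against NT, 138 of 152 recomputed values stayed close to the main value. Log2 ratios among them moved by less than the spread between RT libraries, and counts of genes by less than 1.5 times. Genes with all RT libraries on 1 side of NT also had to keep their direction to be counted here. No such check was made for Krt18, Vim and Zeb2. Zeb2 did change sign, with mean log2 ratios from -0.198 to 0.079 when 1 RT library was left out. With genes of at least 20 CPM only, 226 genes were past 1.5 times higher and 42 lower, 1510 above NT and 2360 below. Without a filter 1688 were higher and 239 lower, and in non-cycling or matrix-negative cells alone 519 and 538 were higher. Leaving out 1 RT library gave 176 to 481 lower, with 481 without RT2 and 232 without RT3, against 131. Snai2 was -0.15 in non-cycling cells, the other direction, and 0.25 in matrix-negative cells, and in non-cycling cells Twist1 was 0.10 and Zeb1 -0.20. No paired analysis was possible because NT was 1 pool of 3 tumors and each RT library was a different tumor.

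For tumor cells against fibroblasts, DESeq2 called 1604 genes higher, and Vim was 0.43 (adjusted p = 0.056). Vim was 0.46 to 0.60 when 1 library was left out, Snai1 -0.51 to 0.052 and Zeb1 -0.82 to -0.32. Zeb1 passed with RLE factors (-0.71, adjusted p = 0.024) and with at least 5 Rhox5 UMIs (-0.66, adjusted p = 0.045). The cycling split gave 1014 genes higher and 880 lower without the library block, 1500 and 1478 when thinned to 1500 UMIs, and 1798 lower with DESeq2. The matrix split gave 794 higher and 866 lower without the block and 1340 higher when thinned to 1500 UMIs. The keratin split gave 203 higher and 81 lower with DESeq2 and 141 lower when thinned to 1500 UMIs. Without the block edgeR called 0 higher and 0 lower, with 228 genes under an unadjusted p of 0.05. Leaving out 1 library gave 293 to 407 higher and 120 to 262 lower, with 158 lower without RT2. Without the block the calls for Krt8, Vim and Zeb1 in the cycling split, Krt18, Vim, Snai1 and Twist1 in the matrix split and Vim in the keratin split were lost.

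Values that passed no test and turned in sign were, when 1 library was left out, Krt18 in the cycling split (-0.18 to 0.22), Twist1 there (-0.058 to 0.033) and Twist1 in the keratin split (-0.027 to 0.050), and, when thinned to 1500 UMIs, Snai2 in the cycling split (-0.26), Zeb2 in the matrix split (0.22) and Twist1 in the keratin split (-0.026). DESeq2 lost the calls for Krt8 (adjusted p = 0.071) and Zeb1 (0.13) in the cycling split and Twist1 in the matrix split (0.051). Thinning to 1500 UMIs also lost Zeb1 in the cycling split and Twist1 in the matrix split, and Zeb1 in the cycling split was lost (adjusted p = 0.078) when the 0, 3, 1 and 3 tumor barcodes of at least 1% collagen were left out and the rest thinned with a new random draw, 2 changes that were not separated. The cause of these changes was not tested.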
